A study of Drosophila melanogaster with 32 samples.

Results

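Whole-body transcript levels of female Drosophila melanogaster were compared between 7 P-element insertion lines, chosen for longer life in at least one sex, and their control line, with the 14 insertion line arrays pooled into one contrast. The samples were chosen by their labels: 14 insertion line females and 2 control females, which make 16 of the 32 arrays of the study. The insertion lines are homozygous for a single P{GT1} element in the Canton S F background, and 6 of them are named for the gene nearest to the element, pyd, mub, crol, CG10990 (now Pdcd4), CG9238 (now Gbs-70E) and esg. The site of the element in the remaining line, BG00817, is not exactly known, and the control is the co-isogenic Canton S F line, which like the insertion lines carries the w1118 allele of white. All flies were virgin and 42 days old, and each array holds the RNA of one pool of whole flies, with 2 pools for each line and sex. In the screen behind this choice, mub, CG10990 and CG9238 lived longer in both sexes, pyd, crol and BG00817 in males, and esg in males with shorter-lived females. In the survival assay made for the array experiment, the paper reports longer life in both sexes of the esg insertion (printed there under mub). It reports the effects of the other lines as before, so not every line is long-lived as a female. Each line is a single insertion in a single stock, and at this age the control flies had begun to die while most insertion line flies were alive, so pools of both kinds hold survivors.

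A gene trap P-element can change the transcript it lands in, and lines with different insertions have in common the element, its mini-white marker and the stock they derive from. All 7 lines are set against 1 control stock, so a change shared by the lines and a peculiarity of that control stock cannot be told apart. In aged female flies, known contributors to whole-body RNA include the ovary, with its yolk and eggshell programme, the gut with its proteases and chitin lining, the fat body, which makes immune peptides and lipid carriers, and the flight muscle.

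The signals are MAS5 values on a linear scale, and a change is the mean log2 signal of the 7 lines, each weighted equally, minus that of the control. A probe set is called when limma gives a Benjamini-Hochberg adjusted p of at most 0.05. Signals under 50 were treated as having no order. Replicate pools of a line correlated at r = 0.964 to 0.977 in females (control, 0.973), and the median signal over all probe sets was 49.2 and 56.5 on the control arrays and 48.2 to 71.0 on the insertion line arrays. The labelled sex was borne out by markers: 3 of 4 testis markers and 4 of 4 accessory gland markers were under 50 on all 16 female arrays, and the other testis marker, Mst98Ca, was under 50 on 13 of them, while the ovary genes osk and bcd had signals of at least 5753 and 2362 on every one. Summed signals of the ovary (26818 and 31279 in the control, 22728 to 39585 in the lines), fat body (22485 and 26430, 23551 to 37424), haemocyte (814 and 934, 671 to 2051), midgut (31693 and 37631, 23721 to 45648), photoreceptor (1040 and 1211, 789 to 1653), neuron (197.7 and 209, 74 to 439) and Malpighian tubule markers (1663 and 2036, 1535 to 2043) overlapped between the groups. The flight muscle sum, 1282 and 1358 in the control and 553 to 1400.4 in the lines, overlapped as well. It includes TpnC4, which was itself called lower, while its other markers, Act88F and fln, were not called. For 3 control transcripts of the array, the 3' over 5' signal, a sign of RNA integrity, was 1.94 and 1.81 on the control arrays and 1.76 to 3.03 (median 2.47) on the insertion line arrays, a difference of 0.39 on the log2 scale (exact permutation test, two-sided, p = 0.0333, where the smallest possible is 0.00833). That test treats the 2 arrays of a line as independent, and over 8 lines the control label could not reach a p below 0.125. The ratio moves with the groups of the female contrast, and its part in that contrast was not tested.

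White, which marks the element, was measured by 1 dim probe set. Its signal was 38.6 and 21.0 in the control and ran from 6.44 to 83.2 (median 42.3) in the insertion lines, with 8 of 14 insertion arrays and both control arrays under 50. The groups overlapped and the probe set was not called (adjusted p = 0.795), so at this signal it does not tell the labels apart in females. In males it had 16.9 and 23.4 in the control and 15.2 to 103.3 (median 63.2) in the lines, and was called higher (adjusted p = 0.00258). Both male control arrays were under 50, so the mean change was at least 1.12-fold. For mub males (15.2 to 23) and esg males (34.2 to 51.6) there was no bound, so the call does not hold for every line.

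The contrast called 412 of 12518 probe sets, 3.29% of those tested, of which 258 (2.06%) were higher in the insertion lines and 154 (1.23%) lower. The stricter threshold of 0.001 left 17. By gene symbol these calls stand for 347 genes, 233 higher and 114 lower, or 2.27% and 1.11% of 10246 genes. At an unadjusted p under 0.05 there were 2378 probe sets. Among named genes without overlap between the groups, and with signals under 50 raised to 50, the largest rises were those of Zip102B, CG2187 and the chorion gene Cp18, and the largest falls those of Rnf11, CG15263 and the troponin gene TpnC4.

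The error behind those counts is the spread between the 2 pools of a line, and no source places them in separate cultures. The p-values therefore cover only the spread between these samples, which may be technical. The 7 lines share 2 control arrays of 1 control line, and over 8 lines a permutation of the control label could not go below p = 0.125. When differences among the insertion lines were left in the error, as 2 groups of arrays, 14 probe sets were called, 10 higher and 4 lower, and with line as a random block 4 were called. Both sets lay within the 412. The 4 were Zip102B, unc-13 and both probe sets of Rnf11, and the 14 added CG13947, pigs, CG13083, CG15263, Crk, CG2983, CG9568, Efr and 2 probe sets without a single gene symbol. Without control replicate 2 the count was 57, of which 47 were among the 412, and without control replicate 1 it was 115, of which 87 were. Of the 63 named genes that were called, 38 lost the call without control replicate 1 and 47 without control replicate 2, while 13 kept it under every alternative with a mean per line: Zip102B, Rnf11, unc-13, CG2187, pigs, TpnC4, rst, CG15784, msl-3, Drsl4, Cyp6d4, Muc68E and psh. Leaving out pyd replicate 2 gave 654 calls, crol replicate 1 or 2 gave 263 or 260, CG9238 replicate 1 or 2 gave 258 or 241, BG00817 replicate 2 gave 248 and esg replicate 1 gave 267.

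The question of the contrast is whether the lines agree. Of the 412 calls, all 7 line means stood on the same side of the control mean for 312, 195 of them higher and 117 lower, against 2837 of 12518 probe sets (22.7%) whatever their p. The call rests on the mean of the same 7 lines, which favours lines that agree, and the lines share the control arrays, so their signs are not separate observations. In the remaining 100 calls at least 1 line went the other way. Of the calls higher in the mean, 54 had 6 lines higher, 8 had 5 and 1 had 4, and of those lower in the mean, 20 had 6 lines lower, 8 had 5, 4 had 4, 3 had 3 and 2 had 2. The single line out of step was CG9238 for 27 of the 54 higher calls, CG10990 and mub for 7 each, crol and BG00817 for 4 each, pyd for 3 and esg for 2. Among the 20 lower calls it was CG9238 for 11 and mub for 4. In size, the median difference from the control over the 258 higher calls was 0.48 in CG9238, 0.71 in CG10990 and between 0.81 and 1.07 in the other 5 lines. Over the 154 lower calls it was −0.36 in CG9238, −0.40 in CG10990 and between −0.51 and −0.64 in the rest.

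**Figure D1:**
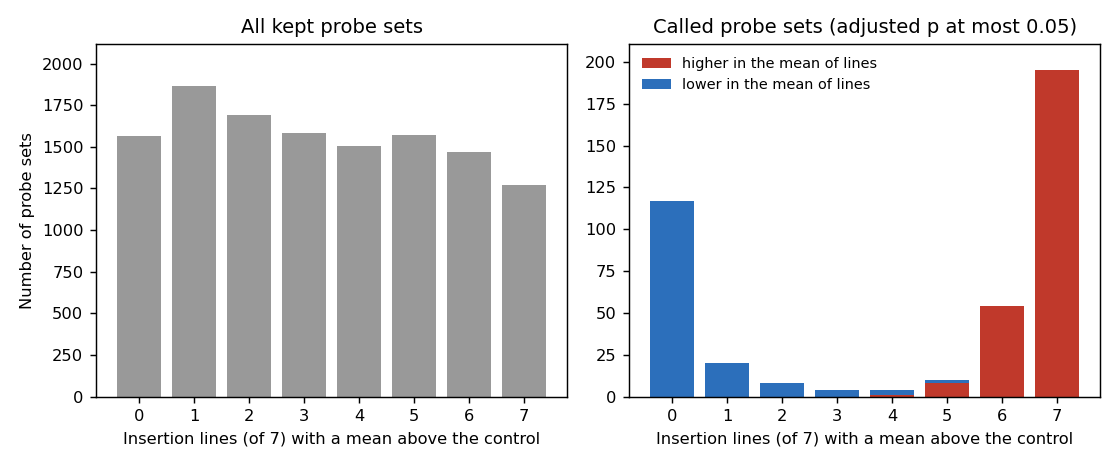
Number of probe sets (vertical axis) by how many of the 7 insertion lines had a female mean above the control mean (horizontal axis), for all 12518 kept probe sets on the left and the 412 called ones on the right, coloured by the sign of the mean change. All lines were higher for 195 calls and lower for 117, while over all probe sets 1271 and 1566 fell in those end bars.

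A stricter count asks for single arrays. All 14 insertion line arrays lay above both control arrays for 118 calls and below both for 74, 192 in all, against 458 of 12518 probe sets (3.66%) whatever their p. The call uses the same arrays and so favours probe sets without overlap. In contrasts without the control, the 7 lines differed among themselves for 281 of the 412 calls, where 2838 of all probe sets (22.7%) did so. Those contrasts share the error estimate of the call, so the tests are not independent. The 131 calls that did not pass that test all had the same sign in 7 lines. A mean that clears the error, with no spread among lines detected against that error, makes this outcome likely in advance. Each line alone differed from the control, at an adjusted p of at most 0.05 within that line's comparison, for 15 of the 412, and 4 lines or more for 166. The mub line stood apart in this respect, with 3013 probe sets called on its own where the other lines had 149 to 500. Without the mub line the contrast called 278, of which 240 were among the 412.

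Chromosome 4, the small dot chromosome, carried the genes that remained called in both fits with line differences in the error. Of its 74 kept probe sets 9 were called (12.2%), while the other arms had between 3.13% (2R) and 3.68% (X). The 9 belong to 7 genes, and 4 of these, Syt7, Zip102B, Rnf11 and PMCA, stand at places 35, 37, 38 and 39 in the order of the 114 genes that RefSeq lists on this chromosome. CG31997 is at place 17, Crk at 25 and unc-13 at 83.

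Zip102B, a gene of the ZIP family of metal transporters, had signals of 29.6 and 18.2 in the control and between 377.8 and 787 (median 472) on the 14 insertion line arrays. Every insertion line array was far above both control arrays, which were under 50. The change was at least 3.27 on the log2 scale, 9.62-fold (adjusted p = 7.6e-06), and the bounds of the single lines ran from 3.07 to 3.77. Its neighbour Rnf11, a RING finger protein gene, went the other way, from 5885 and 5413 in the control to between 127.6 and 371 (median 255). That is 22.8-fold lower (−4.51 ± 0.18, SE, adjusted p = 4.2e-06), and all 7 lines lay between −5.24 and −4.29. A second probe set of Rnf11 fell from 3817 and 3661 to between 102.7 and 360 (−4.03 ± 0.31, adjusted p = 3.0e-04). For neither gene did the lines differ among themselves (adjusted p = 0.363 for Zip102B and 0.0882 for Rnf11).

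unc-13, which primes synaptic vesicles for release, rose from 166.9 and 162.8 to between 547 and 933 (median 689). The change was 2.08 ± 0.07 (adjusted p = 1.5e-06), called in each line alone and with every line between 1.75 and 2.45. CG31997 had 637.7 and 751 in the control and 1110.0 to 2704 in the lines, with no overlap (1.32 ± 0.11, adjusted p = 5.7e-04). Crk, an adaptor protein gene of receptor tyrosine kinase signalling, had 2554 and 2291 against 3152 to 4740.4, again with no overlap (0.75 ± 0.11, adjusted p = 0.00886).

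Not every gene of that stretch was shared. Syt7, a synaptotagmin that senses calcium, was called lower in the mean (adjusted p = 0.0025), yet the lines split. The control had 190.4 and 121.1, and pyd, mub, crol and CG9238 were under 50 on all 8 arrays, each at least 3.04-fold lower, while CG10990, BG00817 and esg lay between 0.06 and 0.54. The mean describes none of these lines. PMCA, the plasma membrane calcium pump, had 2 called probe sets with opposite signs, 0.68 ± 0.13 (adjusted p = 0.0279) and −0.43 ± 0.07 (adjusted p = 0.0166), and another probe set that did not pass (−0.21 ± 0.12, adjusted p = 0.396).

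**Figure D2:**
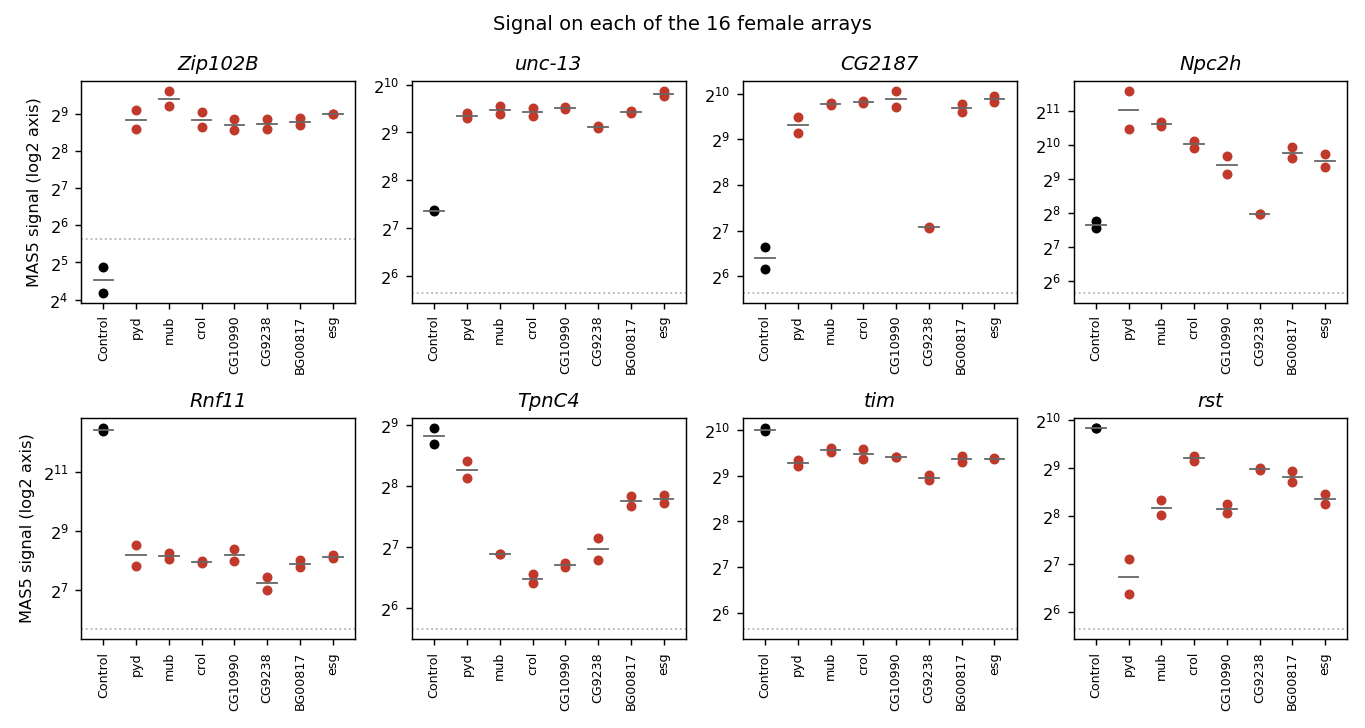
MAS5 signal (log2 axis) on each of the 16 female arrays for 8 genes, by line, with the control in black, insertion lines in red, bars at the mean log2 signal of each line and a dotted line at 50. Zip102B and Rnf11 separate the control from all 7 lines by a wide gap, CG2187 and Npc2h do so in 6 lines while CG9238 stays near the control, and the fall of rst and TpnC4 differs between lines.

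Beyond chromosome 4, the largest rise among named genes was that of CG2187 on 3R. Its signal was 71.2 and 100.4 in the control and 134.2 to 1063 (median 868) in the lines (2.94 ± 0.14, adjusted p = 7.6e-06). The sign was shared but the size was not: 6 lines were between 2.91 and 3.48 above the control and CG9238 was 0.68 above it (adjusted p among lines = 1.4e-04). Npc2h, of the family of sterol-binding Niemann-Pick C2 proteins, had the same outlying line. It rose from 216 and 187 to between 250.5 and 3086 (2.11 ± 0.24, adjusted p = 0.0025), by 1.75 to 3.38 in 6 lines and by 0.32 in CG9238.

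Other genes rose in all 7 lines, by amounts that varied from line to line in some. CG13947 on 2L had 471.4 and 740.3 in the control and 1889 to 5656 in the lines (2.32 ± 0.25, adjusted p = 0.00187), through a probe set whose suffix marks probes that may also match other transcripts. pigs, a cytoskeletal linker of the Gas2 family, had 46.6 and 65.7 against 160.3 to 476, at least 4.3-fold higher (adjusted p = 0.00155). In both genes each of the 7 lines was called on its own. CG7298 rose from 132.1 and 104.2 to between 244 and 2578 (2.78 ± 0.38, adjusted p = 0.00658). Acbp6, an acyl-CoA binding protein gene, and CG5550 started from dim control signals (48.3 and 51.8, and 39.8 and 29.4) and were at least 4.81-fold and 3.49-fold higher (adjusted p = 0.0308 and 0.00602). CG5550 also differed among the lines (adjusted p = 0.0415).

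**Figure D3:**
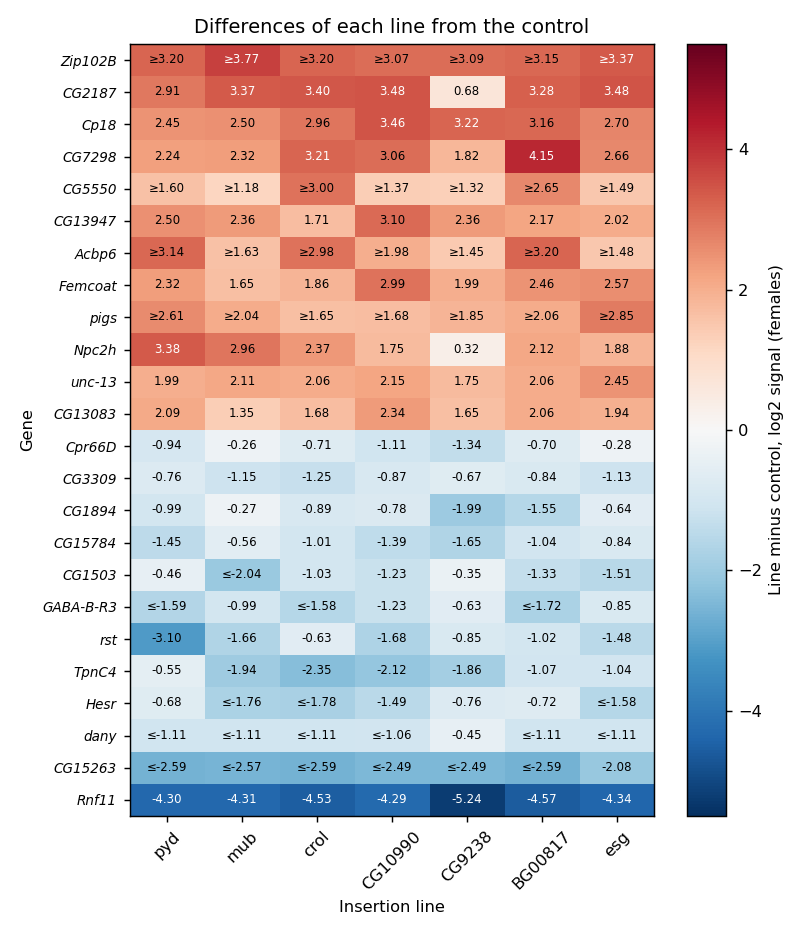
Difference of each insertion line (columns) from the control in log2 female signal, with values printed, for the 12 higher and 12 lower genes (rows) with the largest mean change among calls in which all 14 insertion line arrays lay on one side of both control arrays. The signs ≥ and ≤ mark bounds, where the dimmer group had signals under 50, which were raised to 50. Rows such as Zip102B and Rnf11 are even across lines, whereas CG2187 ranges from 0.68 in CG9238 to 3.48 and TpnC4 from −2.35 in crol to −0.55 in pyd.

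Eggshell genes stood high in the insertion lines. The chorion is the outer eggshell, which follicle cells build late in oogenesis, and all 7 measured chorion genes were above the control, with a median change of 1.17 (all genes, −0.03), 2 called higher and 6 higher in every line. Over all 10246 genes, 4657 were above the control and 1076 higher in every line, and 2.27% were called higher and 1.11% lower. Control pairs in this paragraph are given as replicate 2, then replicate 1. Cp15 had 3417 and 6021 in the control and 6111 to 13709 (median 10525) in the lines (1.17 ± 0.20, adjusted p = 0.0181), with no overlap. Without control replicate 2 its change was 0.76 and the call was lost, as it was with all 32 arrays in one fit. Cp18 had 271 and 2991 against 3629 to 10723 (2.92 ± 0.64, adjusted p = 0.0412), and its call was lost without control replicate 2, where the change was 1.19. The 2 control pools differed widely for the late chorion genes: Cp16 had 191.9 and 4120 against 3559 to 9102, and Cp19 had 709.9 and 6604 against 5877 to 12164, and neither was called (adjusted p = 0.0903 and 0.107). Femcoat, another eggshell gene, had 102.7 and 382 against 386 to 1634 (2.26 ± 0.44, adjusted p = 0.0272), higher in 7 lines. Without control replicate 2 its change was 1.32 and the call was lost. CG13083 on 2L, under 50 on all 16 male arrays, rose from 319.0 and 760 to between 894 and 2529 (1.87 ± 0.31, adjusted p = 0.0142), and without control replicate 2 the change was 1.25 and not called.

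Yolk and vitelline membrane genes, expressed earlier in oogenesis or in the fat body, gave 1 call, which was higher (all genes, 2.27% called higher). Of 11 measured, Femcoat, which this list holds, was the called one, the median was 0.13, and Yp1 had 12046 and 13948 in the control and 11635 to 18875 in the lines (0.12 ± 0.14, adjusted p = 0.696). Of 34 genes of the female germline and of maternal determinants, 27 were below the control (all genes, 54.5%) with a median of −0.17. By line that median ran from −0.48 in mub to 0.11 in CG9238. Of the 34, 2 were called, both lower (all genes, 1.11% called lower). These were mael and aub, which act in the piRNA pathway that silences transposons. aub had 1312 and 1321 against 674 to 1286, with no overlap (−0.39 ± 0.08, adjusted p = 0.0355), and mael had 1236 and 1097 against 389.8 to 1215 (−0.55 ± 0.11, adjusted p = 0.0308). Fewer cells of a type and less RNA per cell cannot be told apart in whole-body pools, for these genes or for any other.

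Immune peptide genes were above the control as well. All 9 measured antimicrobial peptide and Bomanin genes, Toll and Imd targets made in the fat body, had a positive mean (median 0.74), 5 were higher in every line and 2 were called. Of all 10246 genes, 45.5% had a positive mean, 1076 were higher in every line and 2.27% were called higher. In males the median of this list was −1.02. BomBc3 rose from 1371 and 1875 to between 2136 and 7765 (1.29 ± 0.22, adjusted p = 0.0188), and BomS2 from 5163 and 4744 to between 5275 and 12928 (0.75 ± 0.15, adjusted p = 0.0276), both with no overlap. Mtk, for metchnikowin, ran from 271 to 9236 in the lines against 817 and 1628 in the control (0.94 ± 0.89, adjusted p = 0.621). DptB, for a diptericin, ran from 128.0 to 7099 against 329.9 and 989 (0.74 ± 1.18, adjusted p = 0.785), and neither gene passed. psh, the protease Persephone upstream of Toll, rose from 146.2 and 132.4 to between 191.4 and 447 (0.97 ± 0.09, adjusted p = 0.00103), higher in 7 lines.

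Drsl4, a drosomycin-like gene, was higher in 7 lines by unequal amounts. It had 319.7 and 417 in the control and 483.5 to 5869 in the lines (1.75 ± 0.14, adjusted p = 3.0e-04), with crol, pyd and CG9238 above the control by 3.99, 3.65 and 2.32, and the other 4 lines by 0.45 to 0.75. None of 24 haemocyte and basement membrane genes was called, with 22 above the control (all genes, 45.5%) and a median of 0.35. That median was −0.04 in CG9238 and 0.17 to 0.75 in the other lines. LysP, a lysozyme gene, was called higher (0.64 ± 0.11, adjusted p = 0.0166) in 6 lines and stood at −0.12 in CG10990.

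Some gut protease genes rose. Of 24 measured digestive serine proteases, 5 were called higher and 2 lower, 20 were above the control and the median was 0.30. The list median was −0.07 in CG9238 and 0.21 to 0.62 in the other lines. Of all genes, 2.27% were called higher, 1.11% lower, and 45.5% were above the control. Jon65Ai had 738 and 1059 in the control and 1232 to 3209 in the lines (1.16 ± 0.21, adjusted p = 0.0228), and Jon99Fi 4380 and 4068 against 5439.7 to 9957 (0.77 ± 0.16, adjusted p = 0.0357), both with no overlap and all lines higher. thetaTry (0.57 ± 0.11, adjusted p = 0.0242), Jon66Cii (0.94 ± 0.19, adjusted p = 0.0345) and Ser6 (0.32 ± 0.07, adjusted p = 0.0366) were each higher in 6 lines.

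The 2 lower calls, the trypsin genes betaTry and lambdaTry, came from 1 line. betaTry was −5.78 in crol and between −0.06 and 0.43 in the other 6 lines, and leaving the crol line out turned its mean to 0.15 (adjusted p = 0.552). lambdaTry had 2005 and 1979 in the control and was under 50 on both crol arrays, and 4 of 7 lines were above the control. For starch digestion all 12 measured amylase and maltase genes had a negative mean (median −0.32), as 54.5% of all genes did, but the list median was above 0 in mub (0.18), in esg (0.12) and in males (0.12). The call was Mal-A8 (1796 and 2149 against 688 to 2331, −0.64 ± 0.14, adjusted p = 0.0455), which stood at −0.00 in mub and −0.03 in esg.

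Among genes that build or cut chitin, the polymer of cuticle and gut lining, 2 of 20 were called, both higher (all genes, 2.27% called higher). Cht9, a chitinase gene, had 148.5 and 209 against 254.7 to 1001 (1.33 ± 0.24, adjusted p = 0.0209), and the cuticle protein gene Cpr47Ef, under 50 in both control pools, was at least 2.48-fold higher (adjusted p = 0.00465). Both were above the control in 7 lines with no overlap. Another cuticle protein gene, Cpr66D, fell from 400.9 and 425 to between 155.3 and 351 (−0.76 ± 0.13, adjusted p = 0.0156), lower in every line.

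Cytochrome P450 genes, which oxidise xenobiotics and hormones, had 5 of 70 called, all higher, and 53 above the control (median 0.17). By line the list median ran from −0.04 in CG9238 to 0.48 in mub. Of all genes, 2.27% were called higher and 45.5% were above the control. Cyp6d4 had 198.2 and 190.7 in the control and 205.9 to 557 (median 429) in the lines (1.07 ± 0.10, adjusted p = 0.00103), with CG9238 at 0.16 and the other lines at 1.05 to 1.40. Cyp12a5 (0.62 ± 0.11, adjusted p = 0.0188) had its largest difference in BG00817 (1.69), and so did Cyp313a1 (0.56 ± 0.10, adjusted p = 0.0191; 1.60 in BG00817). Cyp4ad1 (0.91 ± 0.17, adjusted p = 0.0269) and Cyp6w1 (0.68 ± 0.14, adjusted p = 0.0327) were higher in 7 lines.

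**Figure D4:**
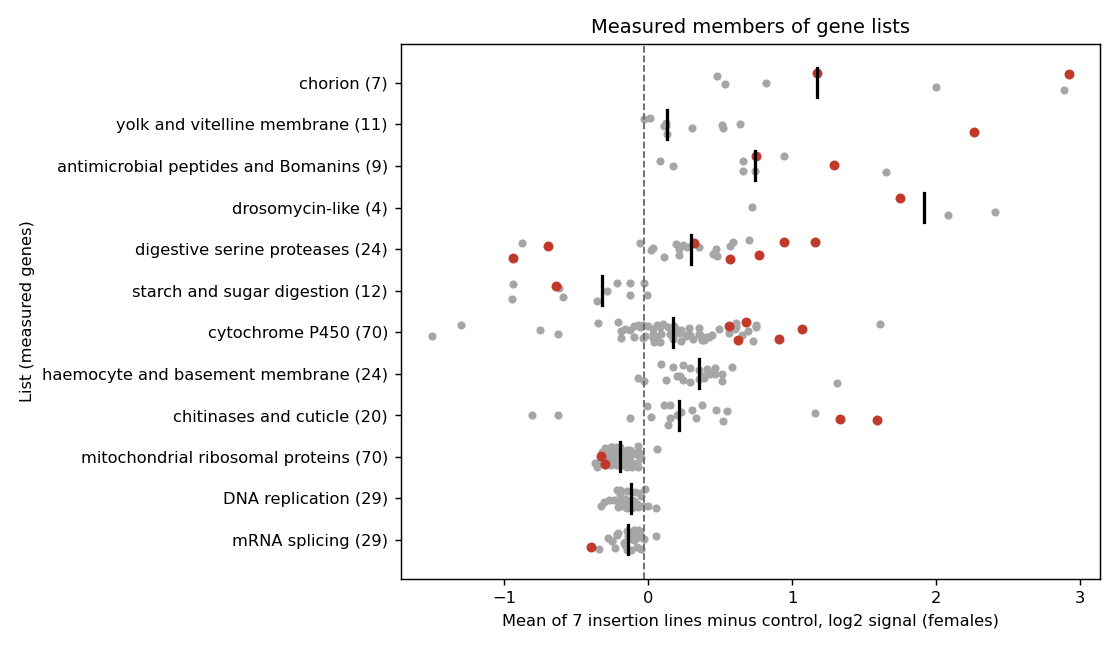
Mean of the 7 insertion lines minus control in log2 female signal (horizontal axis) for each measured gene of 12 lists (rows, with the number of measured genes). Grey points did not pass the test, red points were called, black bars are list medians, values are as measured with signals under 50 included, and the dashed line is the median of all 10246 genes (−0.03). Chorion genes have the widest spread above 0, and the 70 mitochondrial ribosomal protein genes form a narrow cloud with a median of −0.20.

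Genes of lipid transport, insulin signalling and the clock gave few calls. LpR2, a receptor for the lipid carrier lipophorin, was called higher (0.54 ± 0.12, adjusted p = 0.0489) with BG00817 at −0.04, and the lipase gene CG6283 was called lower with 2 lines on the other side. Ilp2, an insulin-like peptide gene of the brain's insulin-producing cells, had 91.7 and 102.8 in the control and 116.8 to 253 (median 183) in the lines (0.86 ± 0.11, adjusted p = 0.00566), and was the only call among 19 measured genes of insulin and TOR signalling. All 7 lines were higher, from 0.27 in CG9238 to 1.19 in mub. InR and foxo had means of −0.52 and −0.32 and did not pass (adjusted p = 0.319 and 0.383), and none of 30 genes linked to life span in other work was called. Of all genes 2.27% were called higher and 1.11% lower, so few calls in lists of this size are no result about their genes. The clock gene tim fell from 1057 and 1000.1 to between 476 and 773 (−0.66 ± 0.08, adjusted p = 0.0025), with each line between −1.05 and −0.45 and called on its own, while dco, which encodes the kinase Doubletime, was higher (0.35 ± 0.08, adjusted p = 0.0493). A second, dimmer probe set of tim was lower in 7 lines and did not pass (adjusted p = 0.15). All flies were frozen at about the same time of day.

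The falls outside chromosome 4 held genes of varied roles. CG15263 on 2L dropped from 264 and 345 to between 16.2 and 100.8, with 9 insertion arrays under 50, at least 5.6-fold lower (adjusted p = 0.00728). TpnC4, the flight muscle troponin C, fell from 498 and 413 to between 84.6 and 339 (−1.56 ± 0.11, adjusted p = 2.7e-04), from −0.55 in pyd to −2.35 in crol. It was the 1 call among 25 muscle genes (all genes, 1.11% called lower), whose median was −0.07, and Act88F, the flight muscle actin, had 722 and 869.5 against 372 to 1102 (−0.28 ± 0.14, adjusted p = 0.294). rst, an adhesion protein gene of the developing eye, fell from 918 and 911.5 to between 83.0 and 613 (−1.49 ± 0.16, adjusted p = 0.00186), from −0.63 in crol to −3.10 in pyd.

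CG15784 on X had 3143 and 4137 against 1087 to 2494 (−1.13 ± 0.11, adjusted p = 0.00103) and was called lower in each line alone. Hesr, a Hairy-related repressor gene, and GABA-B-R3, a metabotropic GABA receptor gene, were at least 2.38-fold and 2.34-fold lower (adjusted p = 0.0207 and 0.035), and dany at least 2.01-fold lower with 11 insertion arrays under 50 (adjusted p = 0.0306). CG1503 (at least 2.2-fold, adjusted p = 0.00417), CG1894 (−1.02 ± 0.12, adjusted p = 0.0025) and CG3309 (−0.95 ± 0.17, adjusted p = 0.0191) were also lower in 7 lines with no overlap.

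Mitochondrial ribosomal protein genes were below the control by small amounts. Of 70 measured genes 69 had a negative mean (all genes, 5589 of 10246), 45 were lower in every line (all genes, 1259), and the median was −0.20, against −0.03 in males. Called lower were 2 of the 70 (all genes, 1.11%). They were mRpS2 (999 and 1099 against 697 to 976, −0.30 ± 0.07, adjusted p = 0.0461) and mRpS16 (1296 and 1296 against 832 to 1165, −0.33 ± 0.07, adjusted p = 0.0481). Genes of DNA replication (28 of 29 below, median −0.12, none called) and of splicing (28 of 29 below, median −0.14, BCAS2 called) had negative medians too, but not in every line: replication stood at −0.53 in mub and 0.15 in CG9238, and splicing at −0.40 and 0.03. Of 29 cytosolic ribosomal protein genes, 28 were above the control (median 0.10, none called), though the list median was −0.03 in BG00817 and −0.08 in esg. The members share their arrays and the same pair of control pools, so these counts describe the arrays.

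Several calls rested on lines that disagreed. msl-3, a subunit gene of the male dosage compensation complex, had 2054 and 1424 in the control and 161.4 to 2343 in the lines (−1.50 ± 0.15, adjusted p = 0.00116). It stood between −3.24 and −1.99 in mub, CG10990, BG00817 and esg and between 0.06 and 0.36 in pyd, crol and CG9238 (adjusted p among lines = 9.9e-06). CG5568 was higher by 1.64 to 3.10 in pyd, crol, CG9238 and BG00817, at 0.08 in CG10990, and at −1.22 in mub and −0.46 in esg. CG3437 was higher in 5 lines and lower in mub and CG9238, each with 1 array under 50. For none of these does the mean change describe a shift that the lines share. CG7763 was under 50 in both control pools and both crol pools, which have no order, and at least 33.5-fold, 24.9-fold and 10.6-fold higher in pyd, mub and CG9238.

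Each tagged gene was examined in all lines, its own line included. pyd, the fly ZO-1 of cell junctions, was −0.90 in its own line and between −0.28 and 0.26 in the others at its brightest probe set. A dimmer one had its mean above the control and did not pass (adjusted p = 0.283). mub, an RNA-binding protein gene, was −1.55 in mub and between −0.20 and −0.00 elsewhere, though a dimmer probe set stood at 0.34 in that line. Pdcd4, a translation regulator, was −1.27 in CG10990 and between −0.36 and 0.34 elsewhere, and Gbs-70E, which targets a phosphatase to glycogen, −1.35 in CG9238 and between −0.46 and 0.06 elsewhere. The probe set of crol, a zinc finger gene, stood at −0.33 in crol and between −0.44 and 0.37 elsewhere. None of these 5 was called in the contrast (adjusted p = 0.0637 to 0.796). esg, a Snail-type factor that maintains intestinal stem cells, was called higher over the lines (69.7 and 70.2 against 62.2 to 167.1, 0.73 ± 0.13, adjusted p = 0.0207), with its own line at 0.61 and the others between 0.04 and 1.16.

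Males of the same lines, set against their own 2 control arrays, gave 300 calls (2.4%), 155 higher and 145 lower. Of the female calls 72 were also called in males (17.5% of the female and 24% of the male calls), 37 higher and 35 lower in both sexes and none with opposite signs. Zip102B (at least 13.6-fold, adjusted p = 7.7e-08), CG2187 (2.80 ± 0.09, adjusted p = 1.1e-07), pigs (2.24 ± 0.19, adjusted p = 1.2e-04), Drsl4 (1.70 ± 0.14, adjusted p = 1.2e-04) and Npc2h (1.54 ± 0.11, adjusted p = 4.7e-05) rose in males too, and tim (−0.80 ± 0.11, adjusted p = 0.00314), CG15784 (−0.94 ± 0.09, adjusted p = 3.4e-04) and TpnC4 (control 1068 and 1062, lines 262 to 1059.7, adjusted p = 0.00279) fell. These are means over lines: CG9238 males had CG2187 at 76.3 and 68.5 against 75.2 and 62.9 in the control, and the other lines were higher. Drsl4 in mub, BG00817 and esg males ran from 809.8 to 1281.0 against 940.3 and 880.0 in the control, and was higher in the other lines. TpnC4 in CG9238 males was 1015.2 and 1059.7, near the control, and was lower in the other lines. Of the 9 chromosome 4 calls 6 were called in males. By arm, females had 66 calls on X, 66 on 2L, 70 on 2R, 67 on 3L and 97 on 3R. In the same order males had 62, 21, 30, 72 and 72 (3.46%, 1.02%, 1.34%, 3.37% and 2.61% of kept probe sets). Called in both sexes were 16, 1, 4, 21 and 12.

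The change itself differed between the sexes for 52 probe sets (0.415%), 39 of them more positive in females and 13 more negative. For 41 the mean changes had opposite signs, counted whether or not either change passed in its own sex. None of these 41 was called in both sexes. The test selects large differences between the changes, which favours opposite signs in advance, and their share over all probe sets is not given here. Rnf11 fell in males as well (1492 and 1887 against 295 to 778, −1.87 ± 0.18), by less than in females (difference −2.64 ± 0.26, adjusted p = 1.3e-04). CG15263 was 3699 and 3656 in control males and 2104 to 3796 in males of the lines, so that its change in males, −0.40, did not pass (adjusted p of the difference = 0.00956). rst changed by −1.49 in females and 0.07 in males (difference adjusted p = 0.00183), and psh by 0.97 and 0.01 (0.00148).

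Muc68E, a mucin gene, was 225 and 216 in control females and 209.8 to 538 in the lines, and 678.9 and 772 in control males and 394 to 1242 in the lines. The changes were 0.79 in females and −0.29 in males, and they differed by 1.09 ± 0.13 (adjusted p = 8.4e-04). Crk changed by 0.75 and −0.20 (difference adjusted p = 0.00157). Rtel1, a helicase gene that maintains telomeres, changed by −0.42 in females, which did not pass (adjusted p = 0.0566), and rose by 0.88 in males (adjusted p = 0.00341), a difference of −1.30 ± 0.16 (adjusted p = 8.4e-04), and CG31104 changed by −0.57 and 0.28 (difference adjusted p = 0.00157).

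**Figure D5:**
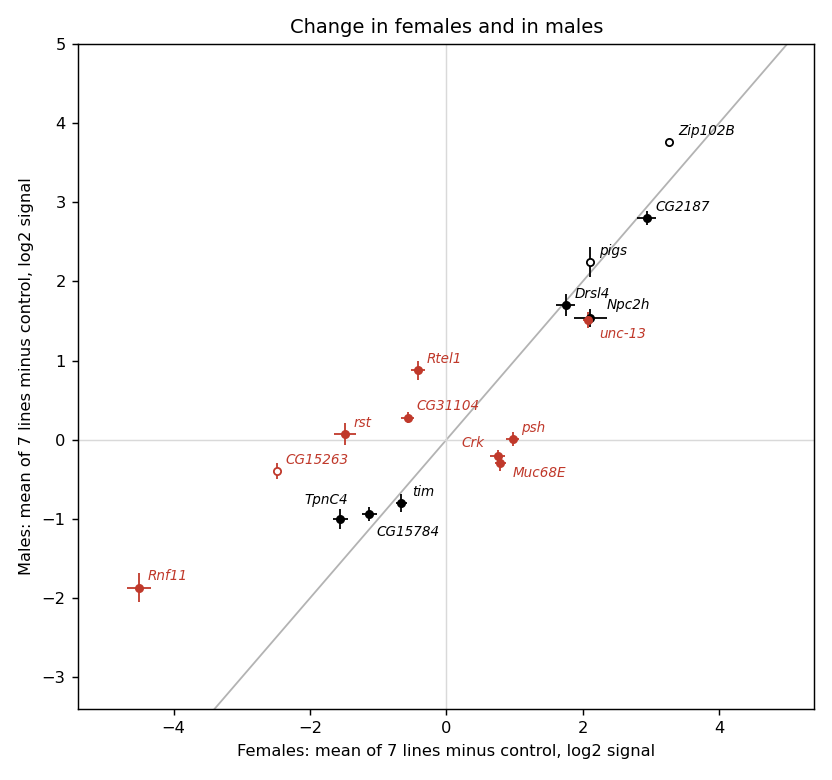
Change in females (horizontal) against change in males (vertical), each the mean of 7 insertion lines minus the control of that sex in log2 signal, for 17 named genes, with bars of 1 SE and a line of equal change. Open points are bounds without bars, with signals under 50 raised to 50 (Zip102B in both sexes, CG15263 and pigs in females). Genes in red passed the test of a difference between the sexes, among them Rnf11 (−4.51 and −1.87) and Rtel1 (−0.42 and 0.88), and the difference was not called for the black genes, such as CG2187 (2.94 and 2.80).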

How the data were processed

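The authors made the intensity values with MAS5 (version not given in the sources used here) from Affymetrix Drosophila Genome 2.0 arrays and deposited linear, untransformed signals, one for each probe set. In the values, the array mean after leaving out the top and bottom 2% was 500. Array scaling and RNA integrity therefore act on every value, and dim signals are noisy. Of 18952 probe sets, 183 array controls were left out, and 12518 were kept whose lower replicate signal reached 50 in at least 1 line and sex. Of these 11074 have 1 gene symbol, 342 several and 1102 none. Symbols and chromosomes come from the platform annotation and the RefSeq Release 6 gene table (85 symbols updated), and those of white and crol from the study's probe annotation, without its values. A gene is represented by its brightest kept probe set over the female arrays. No coordinates are given, since the build of the array annotation is not given in the sources used here.

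log2 signal was fitted in R 4.3.3 with limma 3.58.1, 1 mean per line, on the 16 female arrays (8 residual degrees of freedom, prior 1.473), on the 16 male arrays and, for the sex difference, on all 32, with Benjamini-Hochberg adjustment over the 12518 probe sets. Where an array of the dimmer group was under 50, the text gives a bound with those signals raised to 50, and list counts and medians use the signals as measured. In simulated female arrays with 200 of 12518 probe sets changed, 68.5% of 2-fold and 84% of 4-fold changes were recovered, with 4 and 10 false calls. The simulated control was placed at the mean of the insertion lines, with normal noise between pools as the only error. A deviation of the control stock was thus left out, and the false calls say nothing about it.

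Named genes are the 12 higher and 12 lower calls with the largest change among those without overlap, 4 calls on which lines differ, as many as 4 calls from every list in the text, by smallest p, white, the 6 tagged genes, and the 3 of each direction with the smallest p for the sex difference. Genes outside this rule (the other chromosome 4 calls, list members given with or without a call, and the calls of the line-spread fits) were chosen after their values were seen. The members, lists and rule were chosen with earlier results of these data known.

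Alternatives were other scalings, filters, an offset, raised and untransformed signals, an intensity trend, fits that leave line differences in the error, a replicate block, all 32 arrays in one fit, and each array or line left out.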

Additional observations from a re-analysis of the deposited data

Results flagged for a closer look

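Over all probe sets, 52 changed differently in females than in males, each sex being set against its own control arrays. Among the genes named above, limma's test of that difference (female change minus male change, log2 signal) passed for Rnf11 (−2.64, adjusted p = 1.3e-04), CG15263 (−2.70, 0.00956, its size not exact since 9 female arrays were under 50), rst (−1.56, 0.00183), Rtel1 (−1.30, 8.4e-04) and CG31104 (−0.85, 0.00157), and for unc-13 (0.57, 0.0324), Muc68E (1.09, 8.4e-04), psh (0.97, 0.00148) and Crk (0.95, 0.00157). Male arrays were brighter in the middle of their range, with a median signal of 115.5 to 141.1 against 48.2 to 71.0 in females, and 5.64% to 10.8% of kept probe sets were under 50 on a male array against 20.7% to 25.3% on a female one. The part of this gap in the sex differences was not tested.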

How the results depend on the processing

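The 412 female calls became 645 with the filter taken over female groups only, 168 with no filter, 638 with signals under 50 raised to 50 (314 higher and 324 lower, so that the share of higher calls went from 62.6% to 49%), 575 on untransformed signal (233 higher and 342 lower), 649 with an intensity trend and 795 with all 32 arrays in one fit. They became 14 with 2 groups and no line term and 4 with line as a random block, both with all lines agreeing and no overlap. Without one array the count ran from 57 to 654, and with a whole line left out it was 626 (pyd), 278 (mub), 230 (crol), 261 (BG00817) and 271 (esg). The 192 calls with all 14 insertion line arrays on one side of both control arrays became 104 with no filter, 302 without the pyd line and 289 without the CG9238 line, and 48 to 274 without one array. The 312 calls with all 7 line means on one side of the control mean became 475 with the female filter, 132 with no filter, 575 with all 32 arrays, 472, 190 and 207 without the pyd, crol and BG00817 lines, and 52 to 460 without one array. The 281 calls in females that also vary among the 7 insertion lines became 480 with the female filter, 110 with no filter, 466 with an offset of 50, 486 with raised signals, 449 untransformed, 495 with the trend, 593 with all 32 arrays, 458, 165, 158, 186 and 176 without the pyd, mub, crol, BG00817 and esg lines, and 44 to 499 without one array. The 52 calls of a sex difference became 33 with arrays centred on their medians, 160 with the offset, 249 with raised signals and 91 with the trend, and 15 to 132 without one array. The 72 calls shared with males became 109 in the upper part of probe sets by filter value, 115 with the offset, 109 with raised signals and 118 with the trend, and 26 to 89 without one array. The cause of these shifts was not tested. Replicate numbers did not pair the arrays (correlation of deviations between same-numbered arrays −0.0812 to 0.0822 over 28 pairs of groups), and a replicate block gave 333 calls, 317 of them among the 412, with 9 named genes losing their call. Changes of sign were seen for betaTry without the crol line (0.15), Pdcd4 without the CG10990 line (0.02), pyd without one array (−0.32 to 0.06) and white without one array (−0.20 to 0.68), of which betaTry alone had been called. By single transcript, the 3' to 5' difference was 0.51 for actin, 0.42 for GAPDH and 0.24 for eIF-4a (exact permutation p = 0.0417, 0.00833 and 0.225). For GAPDH the control arrays had 1.47 and 1.54 and the insertion line arrays 1.67 to 2.49, with no overlap. Signals under 50 limit the dim genes, for which only bounds are given.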
